A study of Mus musculus with 12 samples.

Results

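Transfer RNA synthetases, the enzymes that make serine, asparagine and proline, and the carriers that bring amino acids into the cell were examined as 1 set of 32 genes in mouse hematopoietic stem cells (HSCs). Members were the rows of the expression table that carry these 32 gene symbols, out of 46986 features. They comprise 20 cytosolic synthetase genes and 12 genes of amino acid synthesis, transport and glutathione breakdown. The filter of at least 1 RPKM (reads scaled to gene length and to the reads mapped per library) in at least 3 libraries was passed by 27 of the 32 and by 8553 features in all. Cars, Mthfd2, Pycr1, Slc7a11 and Chac1 did not pass it and are given by level alone unless stated otherwise.

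Each aminoacyl-tRNA synthetase joins an amino acid to its transfer RNA, the step that supplies the ribosome, and the enzymes fall into class I and class II by the fold of their catalytic core. Serine is made from a glycolytic intermediate by Phgdh, Psat1 and Psph, and its side-chain carbon enters the folate cycle that supplies purine and thymidylate synthesis. Many genes of both kinds are known targets of ATF4, the transcription factor that cells translate when amino acids run short (the integrated stress response), and several are also known targets of Myc.

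C57BL/6 mice aged 12 weeks gave the bone marrow from which HSCs were sorted, and RNA of 2000 sorted cells was made into each of 12 libraries, 3 per group. Ctrl mice had neither treatment, and ABX mice had vancomycin, metronidazole, neomycin and ampicillin in their drinking water over 4 to 6 weeks. Ctrl 5-FU and ABX 5-FU mice were given the cytostatic drug 5-fluorouracil (5-FU), 200 mg/kg intravenously, without or after the same antibiotics, and were taken on day 12. The labels do not give the surface markers of the sort and do not say whether libraries come from separate animals, so the p-values measure the spread between these libraries, which may be technical.

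Library numbers (Ctrl 1 and so on) only name libraries. The deposited values allow a depth estimate of 27.7 to 54.7 M reads per library, with Ctrl 5-FU 1 the shallowest. The estimate is rough, since only 49.2% to 55.2% of low values lay within 2% of whole read steps. By this estimate every Ctrl library was deeper (44.4 to 54.7 M) than every ABX library (29.3 to 37.6 M). The part of depth in the differences between those groups was not tested. The HSC markers Kit, Ly6a and Procr were between 13.3 and 133 RPKM in every library, while Mecom and Fgd5 stayed at or below 1.05 RPKM. Summed over 5 stromal and endothelial markers, Ctrl 5-FU 1 and ABX 5-FU 1 had 11.5 and 27.3 RPKM and Ctrl 1 had 5.70 RPKM, against 0.798 to 1.58 RPKM in the other 9 libraries, and Ctrl 5-FU 3 had the highest sum of 8 neutrophil and monocyte markers (398 RPKM against 100.3 to 214.6). All libraries were run on 1 flow cell, but the i7 index numbers used for 5-FU libraries were not used for the others, so index and 5-FU cannot be told apart.

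Promoter stretches from RefSeq (GRCm38.p6) are shown first because ATF4 and Myc are the regulators named most often for these genes. A window from 250 bases before to 50 bases after the start was found for 23 of the 32 members. The other 9 (Cars, Hars, Lars, Mars, Nars, Rars, Slc7a5, Vars and Wars) had no window under these symbols and were not searched. The ATF4 motif TGATGNAA, searched on both strands, was present in the windows of 9 of the 23 (Aars, Asns, Chac1, Gars, Iars, Pycr1, Slc7a11, Tars and Yars) and in 3.97% of all 32851 windows. The E-box CACGTG, the Myc motif, was present in 5 of the 23 (Aars, Aldh18a1, Farsb, Iars and Tars) and in 7.15% of all windows, and the 2 motifs do not overlap in these stretches. Capitals mark the matched letters, printed on the strand of the gene (chr6:7693210-7693252, minus strand, for Asns; chr2:119351029-119351076, plus, for Chac1; chr8:111033710-111033757, plus, for Aars; chr15:11399659-11399693, minus, for Tars; chr1:78488911-78488956, minus, for Farsb).
Asns: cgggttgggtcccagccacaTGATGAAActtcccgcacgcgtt
Chac1: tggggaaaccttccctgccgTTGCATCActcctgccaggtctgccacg
Aars: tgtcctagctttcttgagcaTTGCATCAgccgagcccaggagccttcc
Tars: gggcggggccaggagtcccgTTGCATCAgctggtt
Farsb: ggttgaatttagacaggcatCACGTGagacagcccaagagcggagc
The first 4 lines hold the ATF4 motif, read on the opposite strand in Chac1, Aars and Tars, and the last holds the E-box. The windows of Phgdh, Psat1, Psph and Shmt2 hold neither set of letters. A match here is a description of the letters and not of binding.

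On day 12 after 5-FU, all 3 genes of serine synthesis were lower in the values as deposited, with and without antibiotics. Most synthetases gave no call. Of the 27 tested members, 6 were lower and 0 higher in Ctrl 5-FU than in Ctrl (limma on log2(RPKM + 1), Benjamini-Hochberg adjusted p under 0.05 over all 8553 features). In the same comparison 11.8% of all tested genes were lower and 9.74% higher. With antibiotics, 10 of 27 members were lower and 0 higher in ABX 5-FU than in ABX, beside 16.5% lower and 13.7% higher among all genes. All 5-FU libraries lay below the others for 9 of 27 members without antibiotics (18.3% of all genes) and for 14 of 27 with them (26.8%), and above for 1 (18.6%) and 1 (23.1%). Hars, Phgdh, Psat1, Psph and Shmt2 were lower in both, which is 5 of the 6 and 5 of the 10. The median log2 change of the members was -0.12 without and -0.19 with antibiotics, against 0.0045 and -0.014 over all tested genes. With every library rescaled to the same summed RPKM, the member medians became 0.032, the opposite sign, and -0.06. On that scale the medians of all tested genes were 0.14 and 0.12. The 1 RPKM added before taking logs makes the change of a weakly expressed gene look smaller than it is. In RNA pooled from many cells, fewer cells with a transcript and less transcript per cell cannot be told apart.

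Markers of HSCs and of other blood lineages moved with 5-FU. Of 7 tested HSC markers, 3 were higher and 1 lower without antibiotics (log2 changes from -0.95 to 1.03). With antibiotics 4 were higher and 1 lower (-0.83 to 1.23). Among all tested genes 21.6% and 30.2% were called in either direction. The sum of 6 erythroid markers was 186.8, 21.4 and 35.8 RPKM in Ctrl, 140.7, 181.8 and 125.5 RPKM in Ctrl 5-FU, 33.1, 50.7 and 41.8 RPKM in ABX and 151, 155 and 370 RPKM in ABX 5-FU. Of the 4 tested, 1 was higher without antibiotics (the globin Hbb-bt) and 2 with them (Hbb-bt and the erythroid factor Klf1). The median log2 change was 0.72 and 2.30, and among libraries without 5-FU the sum reached the 5-FU range in Ctrl 1 alone. For 4 megakaryocyte markers the sum was 126, 44.9 and 37.2 RPKM in Ctrl, 368, 101 and 81.3 RPKM in Ctrl 5-FU, 63.6, 59.1 and 60.4 RPKM in ABX and 98.3, 97.8 and 76.3 RPKM in ABX 5-FU. Of these 4, 2 were higher without antibiotics (Gp1ba and Itga2b) and 1 with them (Gp1ba), at medians of 0.99 and 0.41. Of 6 tested neutrophil and monocyte markers, 3 were higher without antibiotics and 0 with them. In each comparison 1 of 2 tested T and NK cell markers was higher, and 1 of 2 tested stromal and endothelial markers. No tested B cell or macrophage marker was called. The part of these lineages, of the stromal markers and of the HSC marker changes in the members' values was not tested.

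Phgdh, the first enzyme of serine synthesis (chr3:98313170-98339990), was at 12.8, 11.6 and 11.9 RPKM in the Ctrl libraries and at 6.49, 8.33 and 6.38 RPKM in the Ctrl 5-FU libraries. In the ABX libraries it was at 13.8, 13.7 and 13.2 RPKM and in the ABX 5-FU libraries at 7.81, 8.20 and 7.61 RPKM. Every 5-FU library lay below every library without 5-FU. The log2 change was -0.71 ± 0.09 (SE; adjusted p = 0.000795, limma) without antibiotics and -0.72 ± 0.09 (adjusted p = 0.000408) with them. The group means stood at ratios of 0.584 and 0.579. The difference between these changes was -0.01 ± 0.13 (adjusted p = 0.98, limma interaction term).

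Psat1, the aminotransferase of the second step (chr19:15904678-15947337), was at 3.17, 2.59 and 2.83 RPKM in Ctrl and at 1.98, 1.51 and 1.49 RPKM in Ctrl 5-FU. With antibiotics the values were 3.42, 3.39 and 2.77 RPKM before and 1.89, 1.81 and 1.80 RPKM after 5-FU. Again no 5-FU library reached any library without 5-FU. Psat1 fell by 0.54 ± 0.09 on the log2 scale without antibiotics (adjusted p = 0.00348, limma) and by 0.56 ± 0.09 with them (adjusted p = 0.00155).

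Psph, the phosphatase that releases serine, was lower by less. Its Ctrl libraries were at 2.11, 1.78 and 2.28 RPKM and its Ctrl 5-FU libraries at 1.66, 1.42 and 1.28 RPKM. ABX libraries had 1.97, 2.12 and 1.87 RPKM, and ABX 5-FU libraries 1.54, 1.43 and 1.33 RPKM. The groups did not overlap within either pair, and the log2 changes were -0.32 ± 0.08 (adjusted p = 0.0215, limma) and -0.30 ± 0.08 (adjusted p = 0.021). Psph shares 452 exonic bases, 10.4% of its exons, with Cct6a on the other strand, whose mean was 6.86 RPKM. Whether the counting used strand is not given in the sources used here, so its level is uncertain. The calls for Psph were lost in 4 of the removals of 1 library without antibiotics (Ctrl 1, Ctrl 3, Ctrl 5-FU 2 or Ctrl 5-FU 3) and in 3 with them (ABX 2, ABX 5-FU 2 or ABX 5-FU 3). Both calls were also lost when every library was rescaled to the same summed RPKM, and the first with only its 2 groups in the fit. Adjusted p reached 0.0871 and 0.0855 over all alternatives.

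Shmt2, the mitochondrial enzyme that takes the carbon from serine (chr10:127517123-127522444), had the highest level of the synthesis genes. It was at 35.7, 29.5 and 35 RPKM in Ctrl and at 28.2, 23.9 and 21.3 RPKM in Ctrl 5-FU. With antibiotics it was at 36.4, 36.9 and 30.4 RPKM before and at 20.6, 20.3 and 22.1 RPKM after 5-FU. The 5-FU libraries were the lower ones in both pairs without overlap, although Ctrl 2 (29.5 RPKM) and Ctrl 5-FU 1 (28.2 RPKM) were close. The change was -0.44 ± 0.11 without antibiotics (adjusted p = 0.0204, limma) and -0.69 ± 0.11 with them (adjusted p = 0.00154). Without antibiotics the call was lost when Ctrl 1, Ctrl 3, Ctrl 5-FU 2 or Ctrl 5-FU 3 was left out (adjusted p up to 0.0881 over all alternatives). That call was also lost with no filter on low values, when every library was rescaled to the same summed RPKM, and with only the 2 groups compared. With antibiotics the call was made under all 18 alternatives.

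Mthfd2, the next mitochondrial folate enzyme, was below the filter. Its levels were 0.663, 0.527 and 0.617 RPKM in Ctrl, 0.599, 0.248 and 0.251 RPKM in Ctrl 5-FU, 0.913, 0.752 and 0.621 RPKM in ABX and 0.428, 0.263 and 0.400 RPKM in ABX 5-FU. Ctrl 5-FU 1 lay within the range of Ctrl, and all ABX 5-FU libraries lay below ABX. Tested with no filter on low values, the change was -0.24 ± 0.11 (adjusted p = 0.259, limma) and -0.37 ± 0.11 (adjusted p = 0.065).

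**Figure D1:**
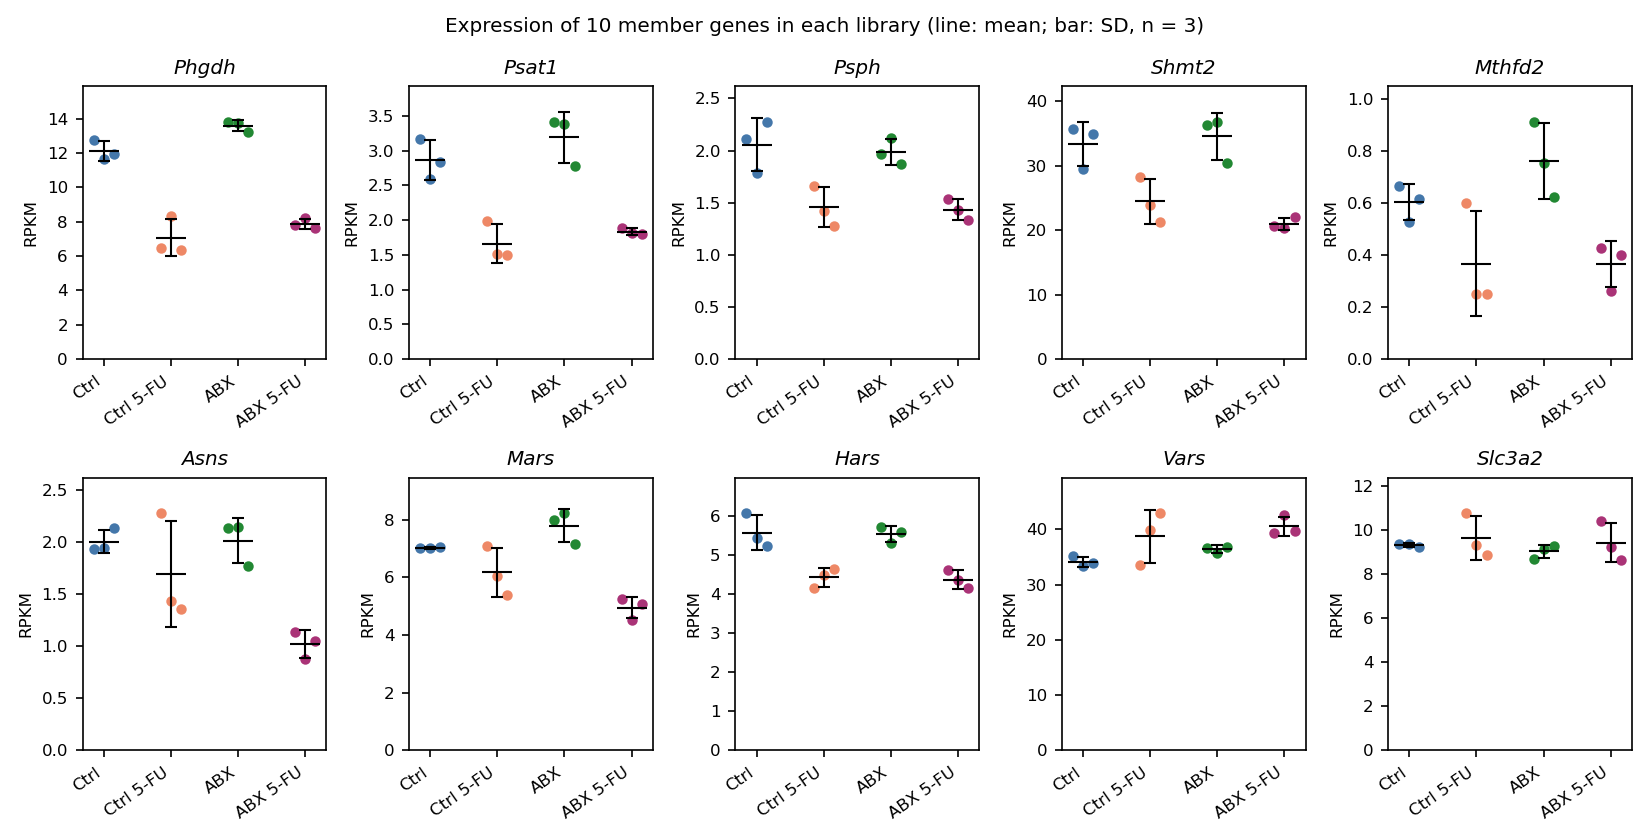
RPKM of 10 members (y axis, 1 panel a gene, each starting at 0) in the 4 groups (x axis), with 1 point a library, a line at the mean and bars of 1 SD (n = 3). Phgdh, Psat1, Psph, Shmt2 and Hars are lower in both 5-FU groups, Asns and Mars are lowest in ABX 5-FU, and the Slc3a2 points lie between 8.66 and 10.8 RPKM in every group.

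Asns, which makes asparagine from aspartate (chr6:7675169-7693254), was called only with antibiotics. It was at 1.94, 1.94 and 2.13 RPKM in Ctrl and at 2.28, 1.44 and 1.36 RPKM in Ctrl 5-FU. In ABX it was at 2.13, 2.15 and 1.77 RPKM, and in ABX 5-FU at 1.14, 0.875 and 1.05 RPKM. ABX 5-FU libraries were below all others, and Ctrl 5-FU 1 was above all Ctrl libraries while the other 2 of its group were below them. Asns fell by 0.58 ± 0.12 with antibiotics (adjusted p = 0.00443, limma), and the value without them was -0.17 ± 0.12 (adjusted p = 0.307). Without Ctrl 5-FU 1, the shallowest library by the depth estimate and one of those with high stromal markers, the latter became -0.32 (adjusted p = 0.0230). The part of depth and of those markers in the Asns level of that library was not tested. The difference between the responses was -0.40 ± 0.17 (adjusted p = 0.59, limma interaction term), so a different response with antibiotics was not shown.

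The call for the proline gene Aldh18a1 depended on the fit. Aldh18a1, which starts proline synthesis from glutamate, was at 4.54, 3.90 and 3.97 RPKM in Ctrl, 4.35, 3.35 and 3.47 RPKM in Ctrl 5-FU, 3.79, 3.70 and 3.92 RPKM in ABX and 3.07, 2.95 and 3.20 RPKM in ABX 5-FU. Its ABX 5-FU libraries were the lowest 3 of the 12, with a change of -0.24 ± 0.09 against ABX (adjusted p = 0.0546, limma). It was called in 5 of 18 alternatives, among them the fits without Ctrl 1 (adjusted p = 0.0489), without Ctrl 5-FU 1 (0.0204) and with only ABX and ABX 5-FU (0.027), and adjusted p ran from 0.0204 to 0.384 over all of them. Pycr1, a reductase of the last step, was at 0.531, 0.603 and 0.704 RPKM in Ctrl, 0.680, 0.482 and 0.372 RPKM in Ctrl 5-FU, 0.771, 0.581 and 0.673 RPKM in ABX and 0.338, 0.324 and 0.327 RPKM in ABX 5-FU. Here too ABX 5-FU held the lowest 3 libraries, and with no filter the change against ABX was -0.33 ± 0.08 (adjusted p = 0.0313).

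Among the carriers, Slc3a2, the shared heavy chain of several amino acid exchangers, was not called in any comparison. It was at 9.38, 9.38 and 9.22 RPKM in Ctrl, 10.8, 9.32 and 8.87 RPKM in Ctrl 5-FU, 8.70, 9.14 and 9.26 RPKM in ABX and 10.4, 9.23 and 8.66 RPKM in ABX 5-FU. All 4 groups overlapped. Slc7a5, the large neutral amino acid carrier that pairs with it, was at 1.45, 0.951 and 1.20 RPKM in Ctrl, 1.11, 1.02 and 1.24 RPKM in Ctrl 5-FU, 3.45, 1.94 and 1.37 RPKM in ABX and 1.10, 0.815 and 1.56 RPKM in ABX 5-FU. ABX 1 was the highest library and ABX 3 lay within the range of Ctrl. The value after 5-FU with antibiotics was -0.55 ± 0.20 (adjusted p = 0.0543, limma) with overlapping groups. Slc7a11, the cystine carrier, stayed at or below 0.00366 RPKM in every library. Chac1, which breaks down glutathione and is a known ATF4 target, was between 0.0001 (the floor of the table) and 0.575 RPKM, so a change in either was not detectable at this level.

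Most cytosolic synthetases had log2 changes below 0 after 5-FU, 12 of the 19 tested without antibiotics and 17 with them on the deposited scale (6 and 10 when rescaled), and few were called. The summed expression of all 20 was 126 ± 4.83 RPKM in Ctrl, 124 ± 2.13 RPKM in Ctrl 5-FU, 131 ± 1.65 RPKM in ABX and 124 ± 0.658 RPKM in ABX 5-FU (SD, n = 3), of which Vars, the valine enzyme, made up 33.3 to 42.9 RPKM. Rescaled to 1 summed RPKM for all libraries, the sum was 125.6, 118.7 and 116.6 in Ctrl and 128.6, 132 and 142.6 in Ctrl 5-FU, without overlap, and 129.6, 118.8 and 119 in ABX and 127.1, 133.4 and 129.4 in ABX 5-FU, with overlap. Of the 19 tested, 2 were lower without antibiotics and 5 with them, and 0 were higher in either. Among all tested genes 11.8% and 16.5% were lower and 9.74% and 13.7% higher. An unadjusted p under 0.05 was reached by 4 and 9 of the 19 and by 3126 and 3666 of all 8553 genes. The median log2 change of the 19 was -0.086 and -0.15. When every library was rescaled to the same summed RPKM it became 0.042, the opposite sign, and -0.0082. Class I genes were lower in 0 of 9 and 2 of 9, and class II genes in 2 of 10 and 3 of 10.

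Hars, which charges histidine, was lower in both comparisons. Ctrl libraries had 6.07, 5.43 and 5.23 RPKM and Ctrl 5-FU libraries 4.17, 4.48 and 4.65 RPKM, and with antibiotics the values were 5.71, 5.32 and 5.58 RPKM before and 4.61, 4.35 and 4.15 RPKM after 5-FU. No library overlapped within either pair, and the changes were -0.27 ± 0.07 (adjusted p = 0.0198, limma) and -0.28 ± 0.07 (adjusted p = 0.012). Among the removals of 1 library, the first call was lost without Ctrl 1 and the second without ABX 5-FU 3. Both were lost when the libraries were rescaled, and the first also with only its 2 groups in the fit and without Ctrl 5-FU 1 and ABX 5-FU 1 together (adjusted p up to 0.28 and 0.217 over all alternatives). Hars shares 195 exonic bases, 7.97% of its exons, with Hars2 on the other strand (mean 5.13 RPKM), and the levels of both are therefore uncertain. Hars2, the mitochondrial enzyme, rose by 0.23 ± 0.07 with antibiotics (adjusted p = 0.0359, limma), a call lost without ABX 1, ABX 2, ABX 5-FU 2 or ABX 5-FU 3.

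Mars, which charges methionine (chr10:127296221-127311786), was at 7.01, 7.01 and 7.06 RPKM in Ctrl and at 7.09, 6.06 and 5.38 RPKM in Ctrl 5-FU. In ABX it was at 8.0, 8.23 and 7.16 RPKM and in ABX 5-FU at 5.25, 4.53 and 5.09 RPKM. The ABX 5-FU libraries were the lowest 3 of the 12, and Ctrl 5-FU overlapped Ctrl through Ctrl 5-FU 1. With antibiotics the change was -0.56 ± 0.09 (adjusted p = 0.00139, limma), and without them it was -0.17 ± 0.09 (adjusted p = 0.204). Their difference was -0.39 ± 0.13 (adjusted p = 0.51, limma interaction term). Mars shares 68 exonic bases with Ddit3 on the other strand.

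Kars, which charges lysine, was at 8.38, 7.49 and 8.17 RPKM in Ctrl, 6.44, 6.68 and 6.56 RPKM in Ctrl 5-FU, 6.86, 8.21 and 7.62 RPKM in ABX and 7.02, 6.39 and 6.17 RPKM in ABX 5-FU. It was lower without antibiotics and without overlap (-0.25 ± 0.08, adjusted p = 0.0381, limma), a call kept in 6 of 18 alternatives with adjusted p up to 0.332. It was lost without Ctrl 1, Ctrl 3, any 1 of the Ctrl 5-FU libraries, ABX 5-FU 2 or ABX 5-FU 3. With antibiotics the groups overlapped at ABX 1 and ABX 5-FU 1 (-0.18 ± 0.08, adjusted p = 0.091).

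Farsb, a subunit of the phenylalanine enzyme, was at 1.77, 1.88 and 1.85 RPKM in ABX and at 1.44, 1.38 and 1.35 RPKM in ABX 5-FU, a change of -0.25 ± 0.06 (adjusted p = 0.0104, limma). Its Ctrl libraries were at 1.80, 1.65 and 1.67 RPKM and its Ctrl 5-FU libraries at 1.62, 1.64 and 1.48 RPKM. Both pairs were free of overlap, but only the first was called. Farsa, the partner subunit, was between 8.72 and 11.4 RPKM and was not called.

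Dars, the aspartate enzyme, was at 4.65, 4.53 and 4.30 RPKM in ABX and at 3.84, 3.77 and 3.68 RPKM in ABX 5-FU, and in Ctrl and Ctrl 5-FU at 4.22, 3.87 and 3.91 and at 3.78, 3.59 and 3.43 RPKM. Yars, the tyrosine enzyme, was at 2.68, 2.69 and 2.76 RPKM in ABX and at 2.31, 2.18 and 2.25 RPKM in ABX 5-FU, and in Ctrl and Ctrl 5-FU at 2.89, 2.79 and 2.61 and at 2.75, 2.29 and 2.60 RPKM. Both genes separated ABX from ABX 5-FU, and Dars also separated Ctrl from Ctrl 5-FU. With antibiotics the changes were -0.20 ± 0.06 for Dars (adjusted p = 0.0275, limma) and -0.19 ± 0.07 for Yars (adjusted p = 0.0463). The call for Dars was lost when ABX 1, ABX 2 or any 1 of the ABX 5-FU libraries was left out, and that for Yars when Ctrl 2, Ctrl 3, Ctrl 5-FU 3 or any 1 of the ABX or ABX 5-FU libraries was left out. Adjusted p reached 0.481 and 0.506 over all alternatives.

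Vars had the highest synthetase level, at 35.2, 33.3 and 34.0 RPKM in Ctrl, 33.5, 39.8 and 42.9 RPKM in Ctrl 5-FU, 36.7, 35.6 and 36.9 RPKM in ABX and 39.4, 42.5 and 39.7 RPKM in ABX 5-FU. All ABX 5-FU libraries lay above ABX, while Ctrl 5-FU 1 lay within Ctrl. The values were 0.17 ± 0.09 (adjusted p = 0.169, limma) and 0.15 ± 0.09 (adjusted p = 0.203). Tars, the threonine enzyme, was at 5.40, 4.90 and 5.48 RPKM in Ctrl and at 7.63, 5.53 and 5.84 RPKM in Ctrl 5-FU, the sole member whose Ctrl 5-FU libraries all lay above Ctrl (0.22 ± 0.10, adjusted p = 0.132). The remaining 11 tested synthetases (Aars, Eprs, Farsa, Gars, Iars, Lars, Nars, Qars, Rars, Sars and Wars) were not called in either 5-FU comparison and ranged from 1.41 RPKM (Lars) to 11.4 RPKM (Farsa). Cars, the cysteine enzyme, was between 0.458 and 0.771 RPKM.

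**Figure D2:**
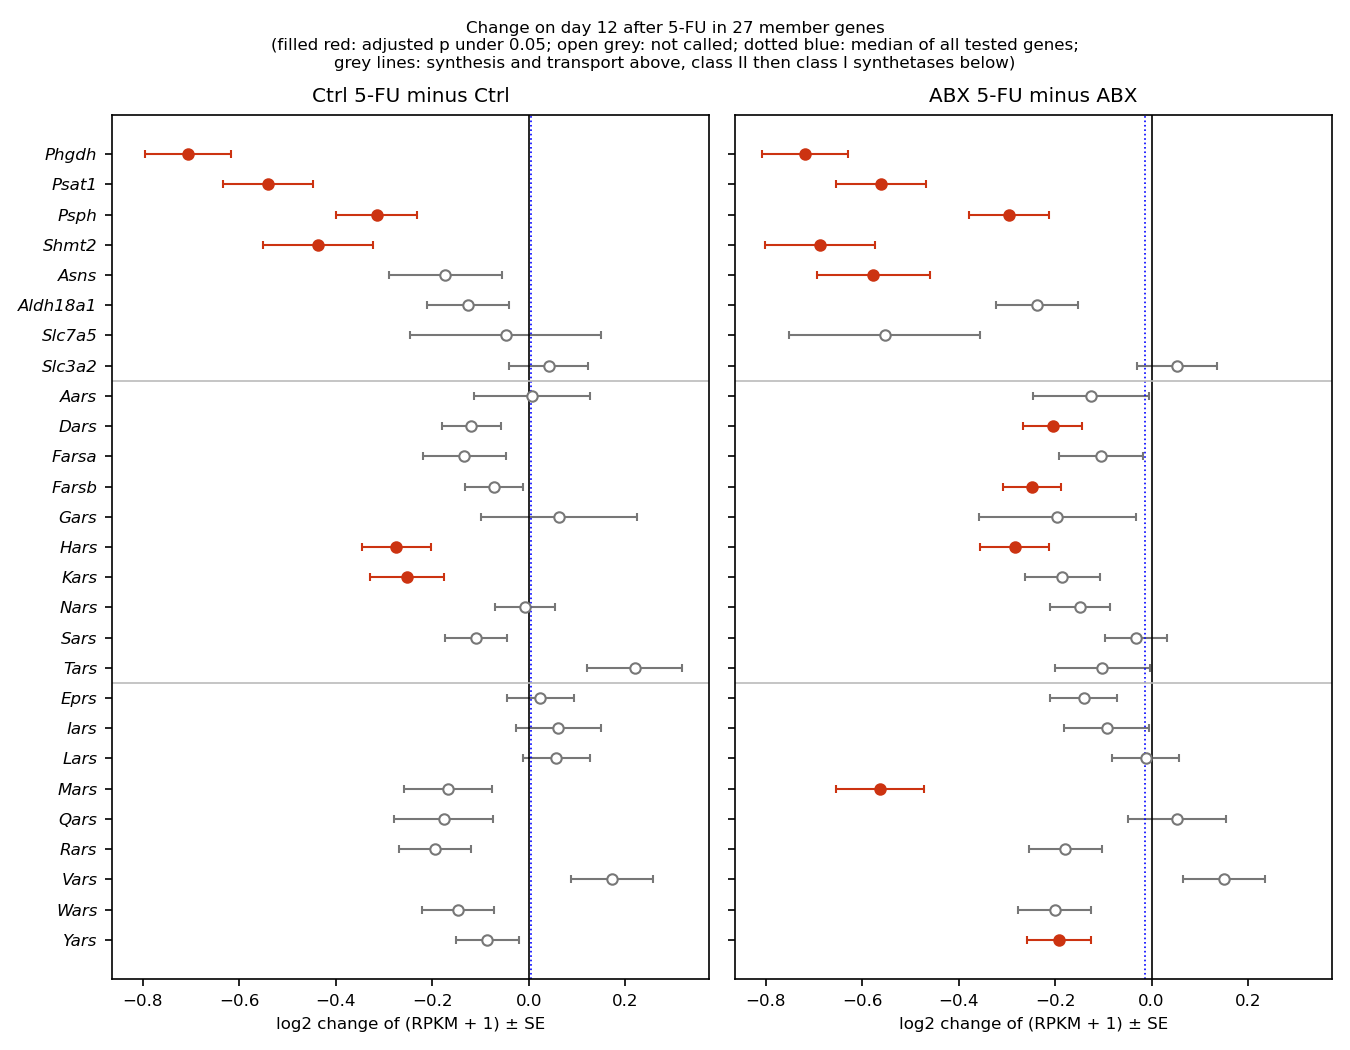
Change of the 27 tested members (rows) on day 12 after 5-FU, on the log2(RPKM + 1) scale (x axis) with bars of 1 SE, without antibiotics (left) and with them (right); filled red points were called at adjusted p under 0.05, and the dotted line is the median of all tested genes. The 6 called members on the left and the 10 on the right all lie below 0, with Phgdh the lowest on this scale at -0.71 and -0.72. The added 1 RPKM shrinks the changes of weaker genes such as Asns and Psat1 more, so the order is not one of fold changes.

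The count of members called depended on single libraries. Without antibiotics it was 2 lower when Ctrl 1 was left out (Hars, Kars, Psph and Shmt2 lost their calls) and 3 lower when Ctrl 3, Ctrl 5-FU 2 or Ctrl 5-FU 3 was left out. Leaving out Ctrl 5-FU 1 gave 8 lower and 1 higher (Vars). The counts of all genes called also moved over these removals, in the ranges given in the last section. Phgdh and Psat1 were called in both comparisons under each of the 18 alternatives, and Asns, Mars and Shmt2 were so with antibiotics. Without Ctrl 5-FU 1 and ABX 5-FU 1, the 5-FU libraries with the highest stromal sums, 6 members were lower and 1 higher without antibiotics, but only 4 of the original 6 were among them: Hars and Kars lost their calls, Asns and Rars were called lower and Vars higher. Among all genes, 1076 were lower and 810 higher. With antibiotics 9 members were lower (Yars lost its call) and 0 higher, beside 1300 lower and 1059 higher genes. With Ctrl 1 left out as well, 5 members were lower and 1 higher without antibiotics (Hars and Kars lost, Asns and Vars gained), beside 759 lower and 656 higher genes. With antibiotics that removal gave 10 lower members (Yars lost, Aldh18a1 gained), beside 1338 lower and 1077 higher genes.

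The scaling of the libraries bore on the smaller changes. Rescaling all libraries to the same summed RPKM moved the median of all genes to 0.14 without and 0.12 with antibiotics. On that scale 2 members were lower (Phgdh and Psat1) and 2 higher (Tars and Vars) without antibiotics, where genes over the whole table split into 433 lower and 1904 higher. With antibiotics 5 members were lower (Asns, Mars, Phgdh, Psat1 and Shmt2) and 2 higher (Slc3a2 and Vars), beside 736 lower and 2160 higher genes. The median of the 3 serine synthesis genes stayed below 0 on both scales, at -0.54 and -0.56 as deposited and -0.42 and -0.44 rescaled. Of these 3, Psph lost its call in both comparisons when rescaled.

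Genes around the members were described from lists of related pathways. In the folate and methionine list, 7 of 12 genes were tested and 6 were lower in both comparisons, with a median of -0.40 and -0.55. Shmt1, the cytosolic counterpart of Shmt2, was at 3.71, 2.65 and 3.82 RPKM in Ctrl, 2.05, 1.63 and 1.57 RPKM in Ctrl 5-FU, 4.04, 3.55 and 3.48 RPKM in ABX and 1.68, 1.85 and 1.77 RPKM in ABX 5-FU. The groups were apart in both pairs, at -0.67 ± 0.11 (adjusted p = 0.00251, limma) and -0.76 ± 0.11 (adjusted p = 0.000826). Sfxn1, a carrier of serine into mitochondria, fell by 0.43 ± 0.07 (adjusted p = 0.00281, limma) and by 0.46 ± 0.07 (adjusted p = 0.00119).

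Mthfd1, the cytosolic folate enzyme, fell by 0.37 ± 0.09 and 0.55 ± 0.09. Mat2a, which makes the methyl donor S-adenosylmethionine, fell by 0.40 ± 0.11 (adjusted p = 0.0252, limma) and by 0.85 ± 0.11 (adjusted p = 0.00049), and without antibiotics its call was lost when Ctrl 2, Ctrl 3 or Ctrl 5-FU 1 was left out. Mthfd1 lost its call without antibiotics when Ctrl 1, Ctrl 3 or Ctrl 5-FU 3 was left out. Ahcy, which clears the product of methyl transfer, fell by 0.39 ± 0.08 and 0.37 ± 0.08.

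A list of 10 S phase genes of the replication machinery moved with these enzymes, and 10 of 10 were lower in both comparisons. Their summed level was 217.7 ± 38.1 RPKM in Ctrl, 116 ± 24.7 RPKM in Ctrl 5-FU, 244 ± 26.4 RPKM in ABX and 108 ± 3.28 RPKM in ABX 5-FU, with Ctrl 5-FU 1 at 144.6 RPKM the highest 5-FU library. The part of these S phase levels in the serine and folate values was not tested. Myc was at 63.7, 75.1 and 69.3 RPKM in Ctrl, 35.3, 46.0 and 32 RPKM in Ctrl 5-FU, 74.6, 67.3 and 55.9 RPKM in ABX and 34.3, 35.1 and 37.3 RPKM in ABX 5-FU. Its 5-FU libraries were the lower ones without overlap, at -0.87 ± 0.13 (adjusted p = 0.00194, limma) and -0.86 ± 0.13 (adjusted p = 0.00119). Myc was the 1 of 3 genes of its network that was called. Mycn, its paralog, was at 50.5, 60.8 and 54.6 RPKM in Ctrl, 65.8, 59.4 and 51.1 RPKM in Ctrl 5-FU, 72.6, 54.9 and 53.9 RPKM in ABX and 64.8, 63.3 and 77.4 RPKM in ABX 5-FU. The Mycn groups overlapped, at 0.08 ± 0.13 (adjusted p = 0.686, limma) and 0.18 ± 0.13 (adjusted p = 0.322). Max, the partner of both, was between 1.71 and 3.41 RPKM (adjusted p = 0.917 and 0.654, limma).

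**Figure D3:**
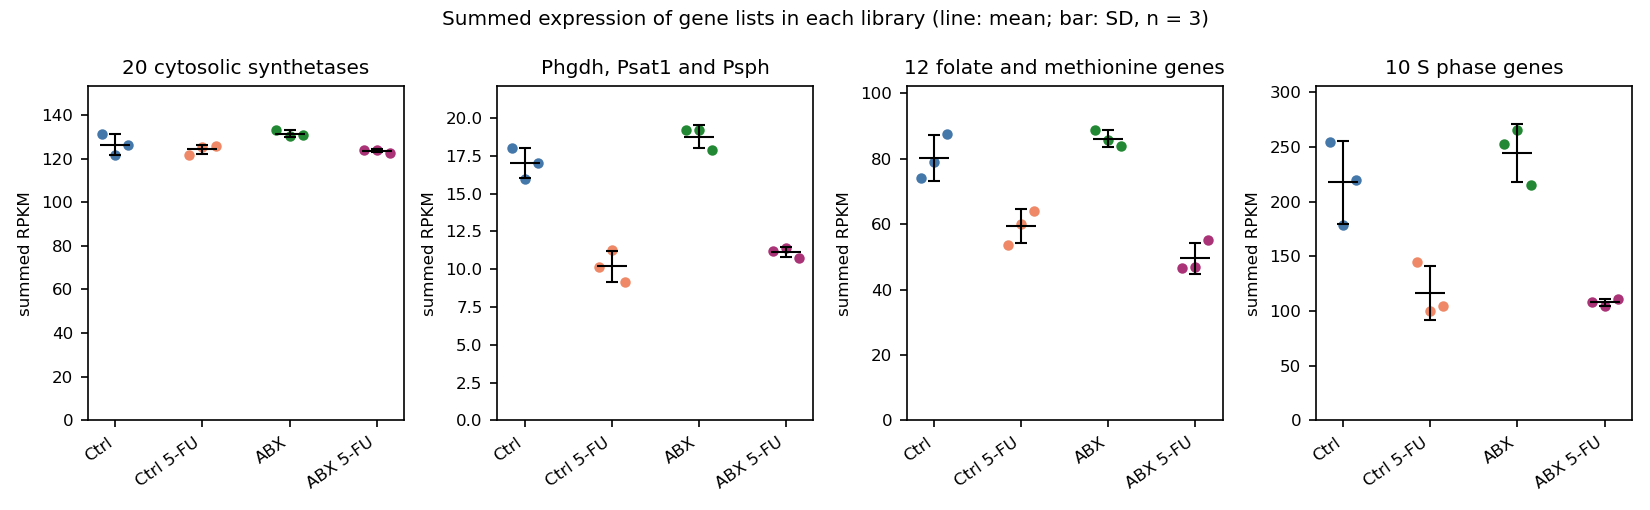
Summed RPKM (y axis, from 0) of 4 gene lists in the 4 groups (x axis), with 1 point a library, a line at the mean and bars of 1 SD (n = 3). The 20 synthetases lie between 122 and 133 RPKM in all libraries, while the serine, folate and S phase sums are lower in both 5-FU groups; most of the folate and methionine sum is Mat2a.

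Of 3 scaffold proteins that hold 8 of the synthetases in a large complex, 1 was lower without antibiotics and 2 with them. Aimp2, a scaffold of that complex, was at 8.33, 7.38 and 7.61 RPKM in Ctrl, 5.36, 5.82 and 5.02 RPKM in Ctrl 5-FU, 7.42, 7.44 and 7.35 RPKM in ABX and 5.31, 3.96 and 4.77 RPKM in ABX 5-FU. It fell by 0.46 ± 0.09 (adjusted p = 0.00653, limma) and by 0.57 ± 0.09 (adjusted p = 0.00129), with no overlap. Eef1e1, another scaffold, fell by 0.47 ± 0.11 with antibiotics (adjusted p = 0.00969), and Aimp1 was not called. Among the 8 synthetases of the complex 1 was lower without and 2 with antibiotics, and among the 11 tested outside it 1 and 3. The shares of all tested genes that were lower were 11.8% and 16.5%.

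The mitochondrial synthetases gave 0 higher and 1 lower (Sars2) of 12 tested without antibiotics, and 1 higher (Hars2) and 2 lower (Pars2 and Tars2) with them. Of all tested genes, 9.74% were higher and 11.8% lower without antibiotics, and 13.7% and 16.5% with them. The call for Sars2 was lost without Ctrl 1, Ctrl 3 or Ctrl 5-FU 3.

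The integrated stress response list had 15 tested genes. Of them, 1 was higher without antibiotics (Vldlr, a lipoprotein receptor) and 2 with them (Vldlr and Ppp1r15a, a phosphatase subunit that acts on eIF2), and 0 were lower. Over all tested genes the shares were 9.74% and 13.7% higher and 11.8% and 16.5% lower. Log2 changes were above 0 for 9 and 12 of the 15, at medians of 0.061 and 0.19 (all genes 0.0045 and -0.014). When rescaled, 15 and 12 were above 0, where the medians of all genes were 0.14 and 0.12. All 5-FU libraries lay above the others for 1 and 7 of the 15 (18.6% and 23.1% of all genes) and below for 1 and 2 (18.3% and 26.8%). An adjusted p under 0.05 for Ppp1r15a (0.0493, limma) was kept in 6 of 18 alternatives and was lost without Ctrl 3, Ctrl 5-FU 2, Ctrl 5-FU 3, ABX 1, ABX 2 or any 1 of the ABX 5-FU libraries (adjusted p up to 0.189). Atf4 itself was at 27.8, 26.8 and 28.1 RPKM in Ctrl and 27.9, 26.4 and 26.9 RPKM in Ctrl 5-FU. In ABX it was at 33.2, 33.7 and 38.2 RPKM and in ABX 5-FU at 32.4, 29.6 and 28.4 RPKM. Ctrl and Ctrl 5-FU overlapped (-0.03 ± 0.08, adjusted p = 0.83), and ABX 5-FU lay below ABX (-0.21 ± 0.08, adjusted p = 0.0528). Ddit3 and Trib3, transcription factor and pseudokinase downstream of ATF4, were not called. ATF4 is controlled largely in translation, which these transcript levels do not measure.

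In the proline, glutamine and aspartate list, 9 genes were tested. Without antibiotics 1 was higher and 2 were lower (9.74% and 11.8% of all tested genes). With antibiotics 2 were higher and 1 was lower (13.7% and 16.5%). Glul, which makes glutamine, was at 9.98, 11.8 and 13.3 RPKM in Ctrl, 15.5, 25.8 and 26.0 RPKM in Ctrl 5-FU, 8.99, 10.5 and 11.7 RPKM in ABX and 23.5, 24.5 and 21.8 RPKM in ABX 5-FU. All 5-FU libraries were above all others, and Glul rose by 0.86 ± 0.18 (adjusted p = 0.00754, limma) and by 1.09 ± 0.18 (adjusted p = 0.00136). Pycrl, a proline reductase, fell by 0.35 ± 0.09 (adjusted p = 0.0195) and by 0.65 ± 0.09 (adjusted p = 0.000695), though without antibiotics the call was lost when Ctrl 1, Ctrl 3 or Ctrl 5-FU 3 was left out. Got2, the mitochondrial aspartate aminotransferase, was lower without antibiotics (-0.33 ± 0.07) and Asl, of the arginine pathway, higher with them (0.33 ± 0.08), the latter lost without ABX 1 or ABX 5-FU 2.

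Slc43a2, a neutral amino acid carrier, was the 1 of 8 tested further transporters to rise, by 0.33 ± 0.09 (adjusted p = 0.0284, limma) and 0.53 ± 0.09 (adjusted p = 0.00213); the first call was lost without Ctrl 1, Ctrl 3, Ctrl 5-FU 2 or Ctrl 5-FU 3. Of 13 tested genes of mTORC1 and amino acid sensing, 1 rose in each comparison (Sesn1, an inhibitor of mTORC1 signaling) and Rragb fell with antibiotics. Beside both lists, 9.74% and 13.7% of all tested genes were higher and 11.8% and 16.5% lower. Sesn1 was at 1.65, 2.0 and 1.69 RPKM in Ctrl, 2.01, 2.76 and 2.62 RPKM in Ctrl 5-FU, 1.90, 1.64 and 2.07 RPKM in ABX and 3.19, 3.82 and 3.29 RPKM in ABX 5-FU. The 5-FU libraries were higher in both pairs, by 0.31 ± 0.10 (adjusted p = 0.0475, limma, kept in 7 of 18 alternatives) and by 0.63 ± 0.10 (adjusted p = 0.00133). The first call was lost without Ctrl 1, Ctrl 3, Ctrl 5-FU 2, Ctrl 5-FU 3, ABX 1, ABX 3 or any 1 of the ABX 5-FU libraries (adjusted p up to 0.147). Rragb lost its call without ABX 2 or ABX 5-FU 1. The 3 tested cysteine and glutathione genes were not called.

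**Figure D4:**
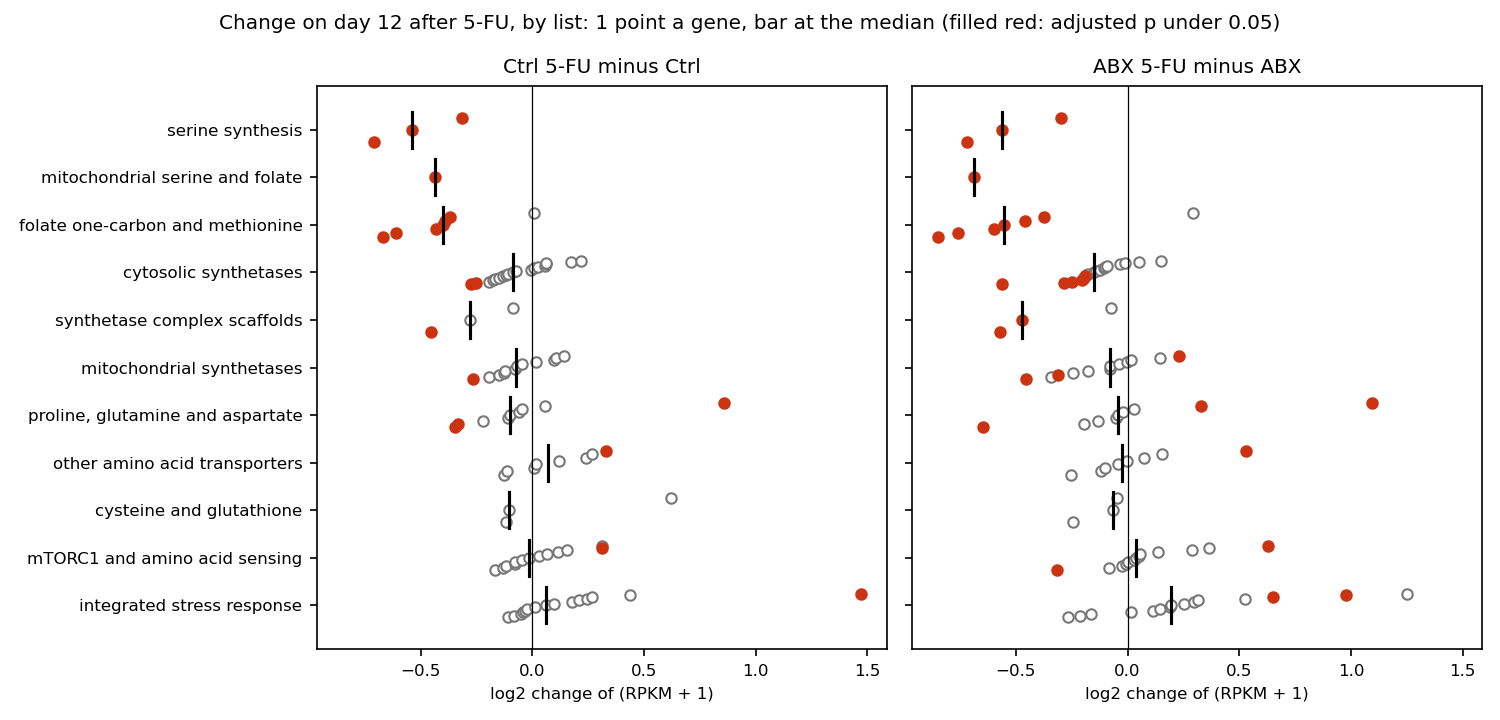
Change on day 12 after 5-FU on the log2(RPKM + 1) scale (x axis) for each tested gene of 11 lists (rows), without antibiotics (left) and with them (right), with a bar at the list's median and filled red points at adjusted p under 0.05. The serine synthesis and folate lists lie at medians of -0.54 and -0.40 on the left and -0.56 and -0.55 on the right, and the cytosolic synthetases at -0.086 and -0.15.

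Antibiotics alone gave no call among the members. In ABX against Ctrl, 0 of 27 were called (limma), beside 0.0702% of all tested genes. An unadjusted p under 0.05 was reached by 3 of the 27 and by 1518 of all 8553 genes. The 3 were Slc7a5 (0.52 ± 0.20, adjusted p = 0.224), Gars (0.40 ± 0.16, adjusted p = 0.238) and Dars (0.14 ± 0.06, adjusted p = 0.277). Gars, the glycine enzyme, was at 2.42, 1.45 and 1.66 RPKM in Ctrl and at 3.70, 2.47 and 2.13 RPKM in ABX, which overlap at Ctrl 1. All ABX libraries lay above Ctrl for 7 members and below it for 1 (Sars), where the shares of all genes were 13.0% and 9.06%. Atf4 gave 0.33 ± 0.07 (adjusted p = 0.0969), with all ABX libraries above all Ctrl libraries.

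After 5-FU, antibiotics again gave 0 of 27 calls (limma), beside 0.117% of all tested genes called. An unadjusted p under 0.05 was reached by 3 of the 27 and by 1275 of all 8553 genes. All ABX 5-FU libraries lay below Ctrl 5-FU for 4 members and above it for 0, where the shares of all genes were 9.67% and 11.5%. They were Asns (-0.40 ± 0.12, adjusted p = 0.148), Mars (-0.26 ± 0.09, adjusted p = 0.202), Aldh18a1 (-0.21 ± 0.09, adjusted p = 0.285) and Farsb (-0.11 ± 0.06, adjusted p = 0.429). The response to 5-FU differed between mice with and without antibiotics in 0 of 27 members (limma interaction term), beside 0.0117% of all tested genes. Here 3 of the 27 and 709 of all 8553 genes reached an unadjusted p under 0.05. These comparisons share libraries with those above.

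**Figure D5:**
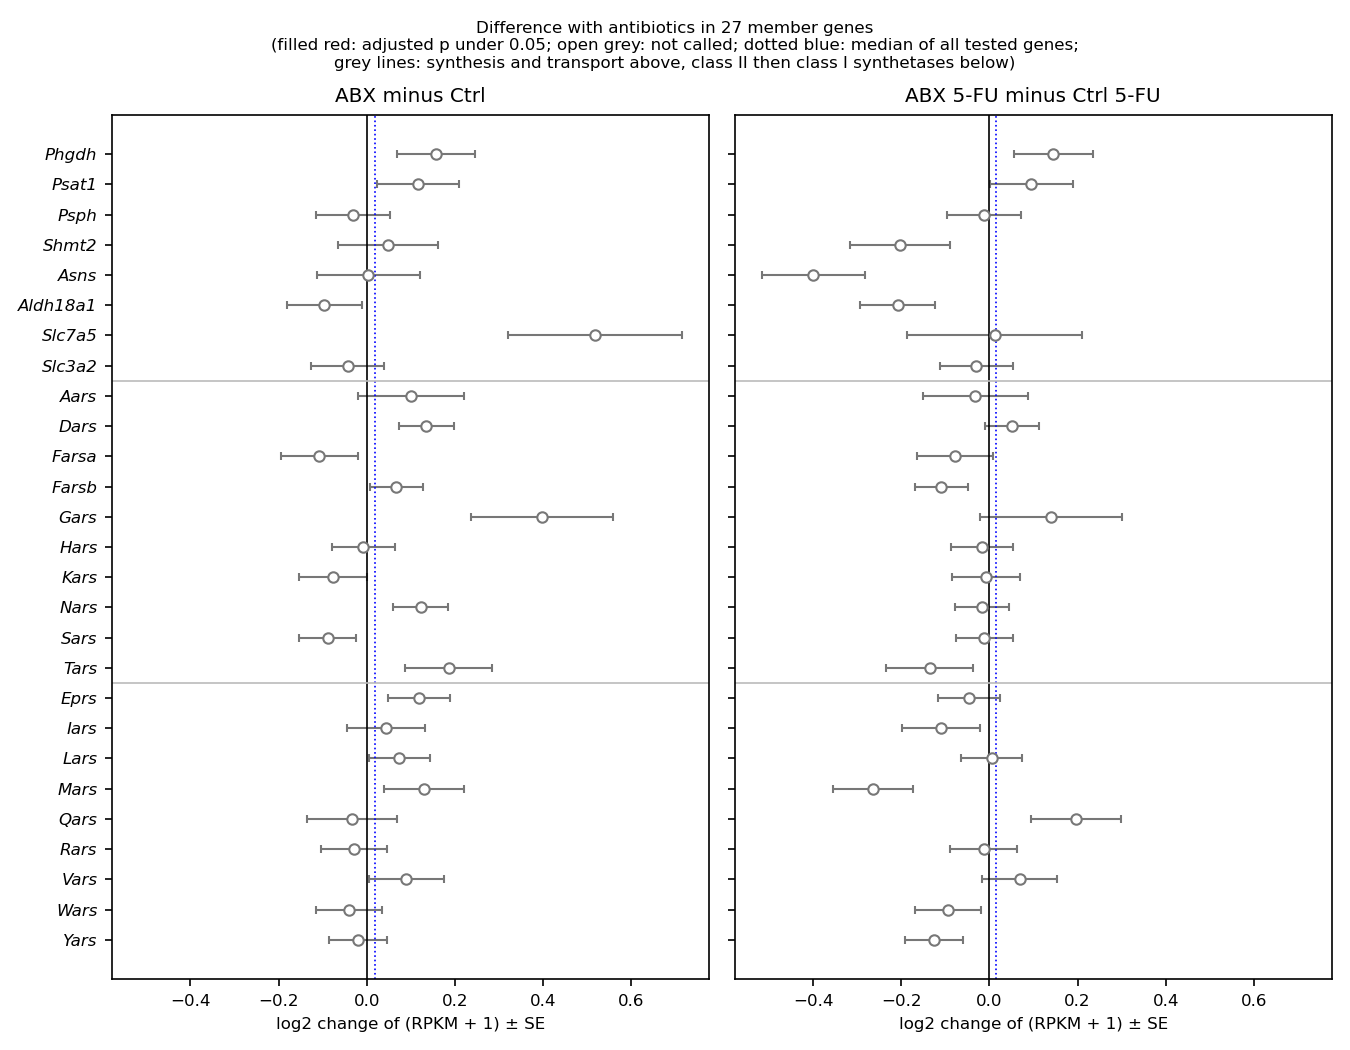
Difference with antibiotics in the 27 tested members (rows) on the log2(RPKM + 1) scale (x axis) with bars of 1 SE, without 5-FU (left) and after 5-FU (right); open points were not called and the dotted line is the median of all tested genes. All 27 points are open in both panels, from -0.11 to 0.52 on the left and from -0.40 to 0.20 on the right.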

How the data were processed

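Libraries were made with SMART-Seq v4 and Nextera XT per the labels' protocols. The deposited RPKM values came from reads aligned to mm10 with STAR 2.5.3a and handled in Partek, per the submitters' processing notes; annotation, counting rule and use of strand were not given in the sources used here. Members and gene lists were chosen with earlier results of these data known. Genes that reached 1 RPKM in 3 or more libraries were tested with limma 3.58.1 in R 4.3.3 (log2 of RPKM plus a pseudocount of 1, 4 group means over 12 libraries, trended variances, two-sided), with Benjamini-Hochberg adjustment over all 8553 genes and a threshold of 0.05. The fit had 8 residual degrees of freedom and 3.34 prior ones, and was tested on simulated data. An exact permutation test of 3 against 3 libraries cannot go below p = 0.1. Values were not counts: 49.2% to 55.2% of low values lay within 2% of whole read steps, too few for a count test. Members called in any comparison, and 11 set by name, are given in every library. Gcn1, Pycr3 and Castor1 were not matched under these symbols (Gcn1l1 and Pycrl were). Promoter windows are from RefSeq, GRCm38.p6. Some genes of the folate and methionine list are not reported here by name.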

Additional observations from a re-analysis of the deposited data

How the results depend on the processing

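Across the alternatives no result changed sign while called. With every library rescaled to the same total, members called after 5-FU became 2 higher and 2 lower without antibiotics and 2 higher and 5 lower with them, and genes became 1904 higher and 433 lower, and 2160 higher and 736 lower. For antibiotics that rescaling gave 5 higher and 7 lower genes without 5-FU and 24 higher and 26 lower after it. Fitting only the 2 groups compared gave 2 lower members and 380 higher and 432 lower genes after 5-FU without antibiotics, 1 lower gene for antibiotics without 5-FU, and 2 higher and 1 lower after it. No filter on low values gave 8 lower genes for antibiotics without 5-FU and 5 higher and 2 lower for the interaction. With the i7 index as a block there were 18 higher genes for antibiotics without 5-FU, 13 higher and 9 lower after it, and 0 lower for the interaction. Leaving out 1 library at a time gave, after 5-FU without antibiotics, 0 to 1 higher and 2 to 8 lower members and 427 to 910 higher and 509 to 1170 lower genes. With antibiotics it gave 0 to 0 higher and 7 to 11 lower members and 716 to 1323 higher and 902 to 1556 lower genes. For antibiotics it gave 1 to 19 higher and 0 to 6 lower genes without 5-FU, 4 to 14 higher and 1 to 16 lower after it, and 0 to 2 higher and 0 to 1 lower for the interaction. Removing Ctrl 5-FU 1 and ABX 5-FU 1 together was chosen after seeing the data and gave 1 higher member without antibiotics, 7 higher and 5 lower genes for antibiotics without 5-FU, 10 higher and 2 lower after it, and 0 lower for the interaction. Removing Ctrl 1 as well, also chosen after seeing the data, gave 1 higher member after 5-FU without antibiotics, 1 lower gene for antibiotics without 5-FU, 2 lower after it and 0 lower for the interaction. Beyond fewer libraries or genes tested, the cause was not tested. The labels give the libraries no replicate numbers. The i7 index, shared by 1 library with and 1 without antibiotics, was the block above, and the 5-FU comparisons have no such pairs. With 3 libraries a group, small changes could lie within the spread, and members below 1 RPKM rest on few reads.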
